A study of Mus musculus with 12 samples.

Results

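The RNA of 9 cytoskeletal genes was followed in mouse embryonic stem cells (mESCs): the cytoplasmic actins Actb and Actg1, the alpha-tubulins Tuba1a, Tuba1b and Tuba1c, the beta-tubulins Tubb5, Tubb2a and Tubb2b, and the gamma-tubulin Tubg1. The genes were listed by name, and every exonic and intronic value of their annotated transcripts was taken. Of 34079 genes in the data these are 9, and 31 of their 32 transcripts in the GENCODE M1 annotation had exonic values, against 121429 transcripts with exonic values in all. The missing one, ENSMUST00000031564, is an Actb transcript. All 31 had an exonic value in every library, and 30 had a mean exonic level of at least 20, the lowest level at which a transcript was tested. The cells were the XY line DTCM23/49, grown on gelatin in serum with LIF. They received 200 µM of 4-thiouridine (4sU), a uridine analog that is built into RNA while it is being made, for 15, 30 or 60 min. Newly transcribed RNA was then biotinylated and pulled down (labeled RNA) and sequenced beside total RNA, with 2 biological replicates, giving 6 labeled and 6 total RNA libraries. The replicates came from 1 culture that was divided and passaged separately, so the error covers 1 cell line, and total RNA of 4sU-treated cells served as the reference since no untreated culture was used here. Every level below is a deposited abundance, normalized to length and scaled so that exons and introns of a library sum to nearly the same total (19988830 to 19992902), about 20 times TPM. Sequencing depth is unknown from such values and no counting error can be given. Labeled and total values are shares of their own library, so a ratio of 1 marks the library average and not a molar fraction of new RNA.

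Actin monomers polymerize into the filaments that shape the cell cortex, and alpha- and beta-tubulin form the heterodimers from which microtubules are built. Gamma-tubulin sits in the ring complex that nucleates them. Cells adjust the tubulin mRNA pool by autoregulation: when free tubulin is in excess, the factor TTC5 recognizes the first residues of alpha- and beta-tubulin chains as they leave the ribosome, and the mRNA being translated is degraded. Actin genes are in turn classical targets of serum response factor (SRF), whose cofactors sense the free actin monomer. Ratios of newly made to total RNA describe how fast an mRNA pool is replaced relative to other mRNAs.

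The coding sequences of the alpha- and beta-tubulins open with the codons that make the residues read in tubulin autoregulation. Those of the actins and Tubg1 open with other codons and are shown beside them. The first 30 bases of the coding sequence are shown for 1 reference transcript per gene, the longest protein-coding M1 transcript with exonic values, 5′ to 3′, with the first 4 codons in capitals.
Actb: ATGGATGACGATatcgctgcgctggtcgtc
Actg1: ATGGAAGAAGAAatcgccgcactcgtcatt
Tuba1a: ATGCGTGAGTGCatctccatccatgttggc
Tuba1b: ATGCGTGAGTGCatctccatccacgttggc
Tuba1c: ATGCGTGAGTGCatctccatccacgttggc
Tubb5: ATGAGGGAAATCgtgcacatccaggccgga
Tubb2a: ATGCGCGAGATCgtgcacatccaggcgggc
Tubb2b: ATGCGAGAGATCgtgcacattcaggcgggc
Tubg1: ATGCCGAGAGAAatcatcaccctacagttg

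The capital bases were the same in the 3 alpha-tubulins, and the whole stretch was the same in Tuba1b and Tuba1c. Tubb2a and Tubb2b differed at 2 of the 30 bases, Actb and Actg1 at 8. Over the entire coding sequence, Tuba1b was 98.3% identical to Tuba1a and 98.4% to Tuba1c, Tubb2a was 96.5% identical to Tubb2b, and Actb was 88.7% identical to Actg1. Tubb5 was 84.6% identical to Tubb2a, and Tubg1 was at most 56% identical to any of the other 8.

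Near-identical genes limit how reads of 100 nucleotides can be assigned. Of all 100-base windows of the reference transcripts, 85.5% in Actg1, 65.6% in Tuba1b, 53.6% in Tuba1c, 53.1% in Tuba1a, 36.6% in Tubb2a and 29.8% in Tubb2b also occurred unchanged in annotated transcripts of another gene. In Tubg1 this held for 4.11%, in Actb for 1.1% and in Tubb5 for 0%. For Actg1 the other copies were pseudogenes, with 78.8% of its windows in Gm12715, which is itself listed at a mean of 1710 in total RNA. For the alpha-tubulins they were both each other and pseudogenes such as Gm17383 and Gm14150, and for Tubb2a and Tubb2b they were each other. Levels of Actg1, the alpha-tubulins, Tubb2a and Tubb2b are therefore uncertain, since they depend on how the quantification divided shared reads, while Actb and Tubb5 had few or no such windows.

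In mm9, the build of M1, Tuba1b (chr15:98761856-98764996, minus strand), Tuba1a (chr15:98780272-98783982, minus strand) and Tuba1c (chr15:98860322-98868536, plus strand) lie in one cluster with 15275 and 76339 bases between neighbors. Tubb2a (chr13:34166170-34169877) and Tubb2b (chr13:34218877-34222223), both on the minus strand, are 48999 bases apart. Actb is at chr5:143664794-143668433, Actg1 at chr11:120207004-120209856 and Tubb5 at chr17:35970871-35975251, all on the minus strand, and Tubg1 at chr11:100981252-100987733 on the plus strand. The reference transcripts have 6 exons in both actins, 4 in every alpha- and beta-tubulin and 11 in Tubg1.

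The cells carried the markers of mESCs. All 8 mESC markers had a mean total RNA level of at least 20, while 1 of 7 fibroblast markers (Thy1) and 0 of 5 primitive endoderm markers did, and 4 of the fibroblast markers were missing in every library. Of 7 neuronal markers listed, 6 were found by name in M1. Of these, 5 passed that level, one of them the beta-tubulin Tubb3, and Dcx was missing in every library. The level alone therefore does not set the mESC markers apart from the neuronal ones. Summed over each list, total RNA held 20570 to 29010 for mESC markers and 669 to 1005 for neuronal markers. A set of 3 libraries stood apart on the second principal component, which held 22.7% of the variance: the total RNA libraries of replicate 2 at 15 min and replicate 1 at 60 min, and the labeled library of replicate 2 at 60 min. They mix labeling times, replicates and RNA fractions, and results below are also given without them. Introns took 6.53% to 7.41% of the signal in total RNA and 6.99% to 14.8% in labeled RNA, with the labeled libraries of replicate 2 at 15 and 60 min (7.24% and 6.99%) inside the range of total RNA.

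By reference transcripts, Tuba1b and Tuba1a were the most abundant members in total RNA. Over 6 libraries, the reference transcript of Tuba1b had an exonic level of 5169 ± 1005 (SD) and that of Tuba1a 4918 ± 188. Tuba1b lay above Tuba1a in only 2 libraries, so the order of these neighbors was not resolved. Actb (2763 ± 243) and Tuba1c (2757 ± 142) followed with overlapping ranges, Actb being higher in 2 of 6 libraries, then Actg1 (2334 ± 168), which was below Tuba1c in all 6 libraries although the ranges overlapped. Tubb5, the highest of the 3 beta-tubulins, stood at 1567 ± 77.4, and its range met neither neighbor's. Tubb2b (614 ± 108) and Tubb2a (552 ± 146) could not be ordered, and Tubg1, which encodes the nucleating tubulin, was lowest at 118 ± 16.7. Summed over all transcripts of a gene, the order was different, with Actg1 at 13857, Tuba1a at 13559 and Actb at 13194, followed by Tuba1b at 7047, Tubb5 at 4320 and Tuba1c at 2757. For reference transcripts in labeled RNA the order changed at Actb: it stood at 1296 ± 233, the sixth in the order, and Tubb5 (1302 ± 235) was above it in 1 of 6 libraries.

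Tuba1b, Tubb2a and Tubb2b shifted in the total RNA libraries that stood apart. Tuba1b reached 6388 to 6515 in the 2 total RNA libraries that stood apart and 4348 to 4779 in the other total RNA libraries. Tubb2a was at 366 to 381 in the former and 575 to 719 in the latter, whereas Tubb2b was at 651 to 810 and 497 to 589. These sets of libraries did not overlap in the 3 genes and overlapped in the other members. They were picked by exonic levels that include these genes, and the share of all genes without overlap was not counted. In labeled RNA the library that stood apart had Tuba1b at 5156 and Tubb2b at 819, above the others (2911 to 4275 and 386 to 560). Its Tubb2a, at 382, lay within the others' 250 to 713. The ratio of Tubb2a to Tubb2b was 0.451 to 0.585 in the 3 libraries that stood apart and 0.463 in the labeled library of replicate 1 at 15 min, against 1.02 to 1.28 in the other 8. Low ratios occurred in both RNA fractions, and their relation to the shared sequence of both genes was not tested.

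**Figure D1:**
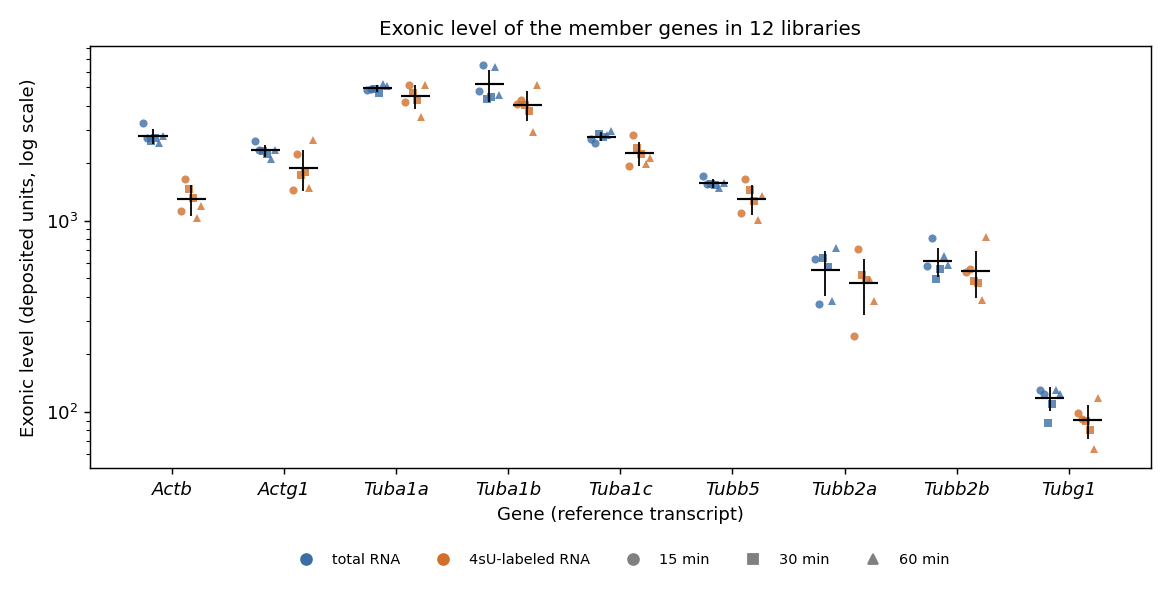
Exonic level of the reference transcript of each gene (deposited units, log axis) in 6 total RNA libraries (blue) and 6 labeled RNA libraries (orange), with the labeling time as symbol and mean ± SD in black. Labeled Actb values, 1030 to 1661, all lie below total values, 2553 to 3235, while in the other 8 genes the ranges overlap.

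Actb was the member most depleted from newly transcribed RNA. The exonic level of its reference transcript was 2553 at the lowest, 2697 at the median and 3235 at the highest in total RNA, and 1030, 1254 and 1661 in labeled RNA. Every labeled library was below every total library, and the geometric mean of the labeled to total ratio was 0.464 (range 0.347 to 0.617 over 6 pairs of libraries). Of all 8758 reference transcripts tested, 11.1% had labeled libraries wholly below the total libraries.

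Actg1, which encodes the closely related gamma-actin, was less depleted. Its reference transcript ranged from 2114 to 2621 in total RNA, with a median of 2337, and from 1454 to 2640 in labeled RNA, with a median of 1762. The ranges overlapped through the labeled libraries of replicate 2 at 15 min (2237) and 60 min (2640), the latter the highest of all 12, and the geometric mean ratio was 0.793, below 1 in 5 of 6 pairs.

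The alpha-tubulins lay on both sides of Actg1. Tuba1a had a ratio of 0.904, Tuba1c of 0.812 and Tuba1b of 0.781, and the ranges of both fractions overlapped in each. Tuba1b spanned 2911 to 5156 in labeled RNA and 4348 to 6515 in total RNA, the widest spread of the 3 genes. Tuba1c, at 1944 to 2806 against 2546 to 2962, overlapped only through the labeled library of replicate 2 at 15 min.

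Beta- and gamma-tubulin ratios lay in the same band. The ratio was 0.820 for Tubb5, 0.845 for Tubb2a, 0.871 for Tubb2b and 0.761 for Tubg1. Tubb5 had a median of 1551 in total RNA and 1302 in labeled RNA and its fractions overlapped. Across the 9 genes, 44 of 54 pairs of libraries had a ratio under 1 (81.5%), against 60.2% of pairs over all 8758 reference transcripts, and the pair with the highest ratio, 1.95, was Tubb2a at 15 min in replicate 2, where its total RNA library was one of those that stood apart.

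Gene levels, summed over the exonic values of all transcripts of a gene, were compared between fractions with limma across 13977 genes, with labeling time as a covariate. Of the members 3 were lower in labeled RNA (adjusted p under 0.05) and 0 higher, where 11.6% of all genes tested were lower and 5.28% higher (1615 and 738 genes, or 1599 and 1360 with median-ratio scaling). Actb fell by 1.02 ± 0.16 (SE) on the log2(value + 1) scale (limma, adjusted p = 0.00231), Actg1 by 0.57 ± 0.14 (adjusted p = 0.0160) and Tuba1b by 0.41 ± 0.11 (adjusted p = 0.0254). The median over all genes was -0.05, and 1.14% of genes had a lower value than Actb, 8.81% than Actg1 and 18.0% than Tuba1b. The remaining members had log2 values between -0.13 (Tuba1a) and -0.30 (Tuba1c) and adjusted p between 0.0712 and 0.539. Tuba1c was called without the labeled library of replicate 2 at 15 min (-0.38, limma, adjusted p = 0.00949). Actb passed in all 12 fits that left out 1 library, and without the 3 libraries that stood apart its value was -1.05 (limma, adjusted p = 0.00404).

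The calls of Actg1 and Tuba1b were less firm. Scaling each library by its median ratio ended both (limma, adjusted p = 0.0613 and 0.104), and with labeled and total libraries blocked as 6 pairs Tuba1b gave an adjusted p of 0.0611. Tuba1b also lost its call without the 3 libraries (adjusted p = 0.0623) and in 6 of the 12 fits that left out 1 library, among them those without the total RNA libraries of replicate 2 at 15 min and replicate 1 at 60 min (adjusted p = 0.0552 and 0.0560), those without the labeled libraries of replicate 1 at 15 min and replicate 2 at 30 min (0.0596 and 0.0632) and those without the total RNA libraries of replicate 2 at 30 min and replicate 2 at 60 min (0.0513 and 0.0517). Summed over 8 transcripts, Actb averaged 13194 in total RNA, against 2763 for its reference transcript, and how far these values share reads is unknown. With 1 reference transcript per gene, a choice made after the values were seen, 20.5% of 8758 genes were lower and 5.54% higher, and of the members only Actb was called, at -1.11 (limma, adjusted p = 0.000158). Its value was below that of all but 0.240% of genes, whereas Actg1 had -0.34 (adjusted p = 0.110) and Tuba1b -0.36 (adjusted p = 0.0923). Without the 3 libraries that stood apart, reference transcripts of Actb (-1.15, limma, adjusted p = 0.00123), Actg1 (-0.49, adjusted p = 0.0204) and Tubg1 (-0.45, adjusted p = 0.0384) were called, among 2051 genes lower and 552 higher of 8864.

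Single transcripts were tested next. Among 45537 transcripts tested, 12% were lower in labeled RNA and 5.28% higher. All 8 measured Actb transcripts were lower, with log2 values from -0.84 (ENSMUST00000167386) to -1.32 (ENSMUST00000163829), and they include 2 annotated as retained introns. Of the 9 Actg1 transcripts 6 were lower, with ENSMUST00000128055 at -0.81 (limma, adjusted p = 0.0210) and the reference transcript ENSMUST00000071555 at -0.34 (adjusted p = 0.150). None of the 13 tubulin transcripts tested was called in limma. The transcripts of a gene overlap in sequence and are not independent measurements. Here median-ratio scaling shifted the median of all transcripts from -0.09 to 0.02, and turned the 5485 lower and 2403 higher transcripts into 4559 and 4141. Under it 7 Actb and 2 Actg1 transcripts were lower, and with the 6 pairs as a block 7 and 4.

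Next, the ratio was examined at each labeling time. The exonic ratio of Actb, from the mean of both replicates of the reference transcript, was 0.469 at 15 min, 0.521 at 30 min and 0.417 at 60 min. The single replicates gave 0.347 and 0.617 at 15 min, 0.556 and 0.487 at 30 min, and 0.403 and 0.430 at 60 min. Among 8201 to 8203 reference transcripts with a ratio, whose median was 0.930, 0.876 and 0.898 at these times, Actb ranked at percentile 0.220, 1.44 and 0.268. Actg1 rose in rank with labeling time, from percentile 19.7 to 32.2 and 53.8, but its replicates at 60 min, 0.702 and 1.12, were farther apart than its values at different times. The tubulins showed no common order over time. Tuba1c had ratios of 0.912, 0.832 and 0.718, Tubb5 of 0.845, 0.874 and 0.771, and Tubb2b of 0.793, 0.902 and 0.972, each with replicates at 15 min that differed by more than these values did.

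**Figure D2:**
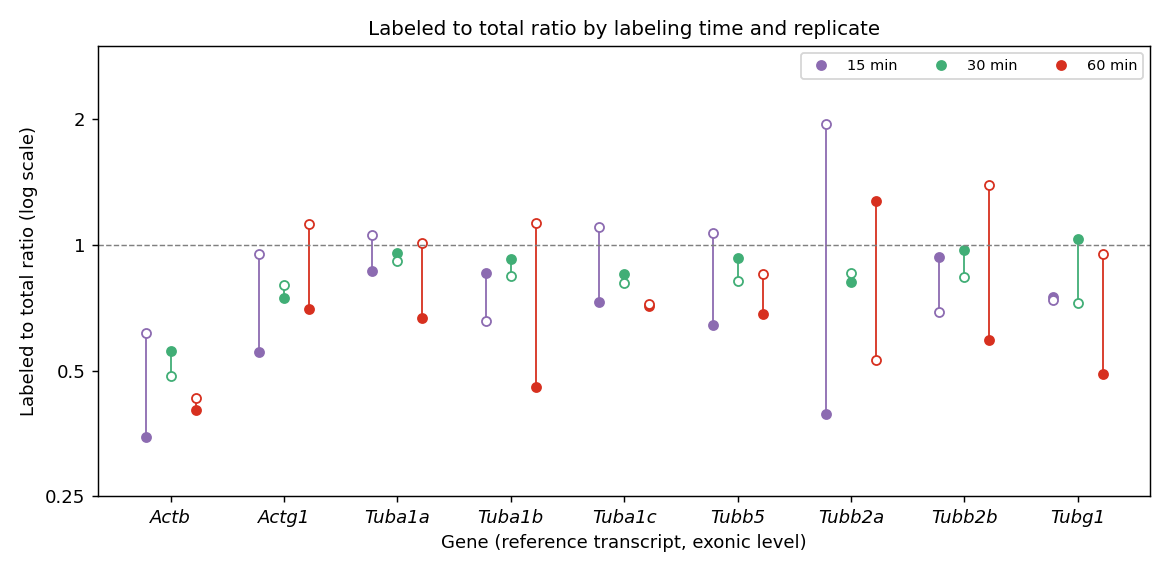
Labeled to total ratio of the exonic level (log axis, 1 dashed) for each gene at 15, 30 and 60 min, filled points for replicate 1 and open points for replicate 2, joined by a line. All 6 Actb points lie between 0.347 and 0.617, and the Tubb2a replicates at 15 min are the farthest apart, at 0.394 and 1.95.

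No member passed the test at any single labeling time, and few genes did at all. With 2 libraries per group, limma called 0% of 13977 genes at 15 min (1566 at an unadjusted p under 0.05), 0.0286% at 30 min (4 genes, 1656 unadjusted) and 0% at 60 min (1660 unadjusted). Gene sums of Actb differed by -1.16 ± 0.30 at 15 min (limma, adjusted p = 0.221), -0.82 ± 0.30 at 30 min (adjusted p = 0.351) and -1.10 ± 0.30 at 60 min (adjusted p = 0.260). The change of the labeled to total ratio between 15 and 60 min was called in 0% of genes (162 unadjusted), and for Actb it was 0.06 ± 0.42 in log2 (limma, adjusted p = 1). Simulated differences of 1 on the log2 scale were recovered for 0 of 200 genes at 60 min, and those of 2 for 135 of 200. Only these 200 of 13977 genes were changed, with the spread of each gene. The simulation therefore does not settle what was detectable for Actb.

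Ratios between genes within a library do not depend on its scaling. In 8 pairs of members compared by a two-sided exact permutation test over all divisions of the 12 libraries, 3 differed between fractions after adjustment over the pairs. Of these, Actg1 to Actb and Tubb5 to Actb both hold Actb, so they are not separate from its lower level in labeled RNA given above. The share of called pairs among pairs of other genes was not counted. Actg1 to Actb, as gene sums, had a geometric mean of 1.06 in total RNA (0.961 to 1.16) and 1.45 in labeled RNA (1.32 to 1.66), without overlap (exact permutation test, adjusted p = 0.00866). Tubb5 to Actb rose from 0.329 in total to 0.586 in labeled RNA, with overlapping ranges (exact permutation test, adjusted p = 0.0173). Tuba1a to Tuba1b rose from 1.93 to 2.34 (exact permutation test, adjusted p = 0.00866). Over reference transcripts alone the calls of Actg1 to Actb and Tubb5 to Actb held (exact permutation test, adjusted p = 0.00866 for both) and that of Tuba1a to Tuba1b was lost (adjusted p = 0.225).

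The reference transcripts of Tubb5 and Actb, the genes with the fewest shared windows, kept a narrow range of proportions within each fraction. Tubb5 to Actb was 0.528 to 0.592 in the 6 total RNA libraries and 0.959 to 1.13 in the 6 labeled libraries, with labeled RNA higher in 6 of 6 pairs of libraries. Actg1 to Actb was 0.810 to 0.885 in total and 1.19 to 2.21 in labeled RNA. Put as a share, Actg1 made up 45.8 ± 0.855% (SD, n = 6) of the summed reference signal of both actins in total RNA and 59.0 ± 5.11% in labeled RNA, with the highest share, 68.9%, in the labeled library of replicate 2 at 60 min. The other 5 pairs, all between tubulins, had adjusted p between 0.281 and 0.961 (exact permutation test). With the 6 labeled and total libraries taken as pairs, the exact sign-flip test cannot give a p below 0.03125, or 0.125 after adjustment over the 8 pairs, and called 0 pairs.

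**Figure D3:**
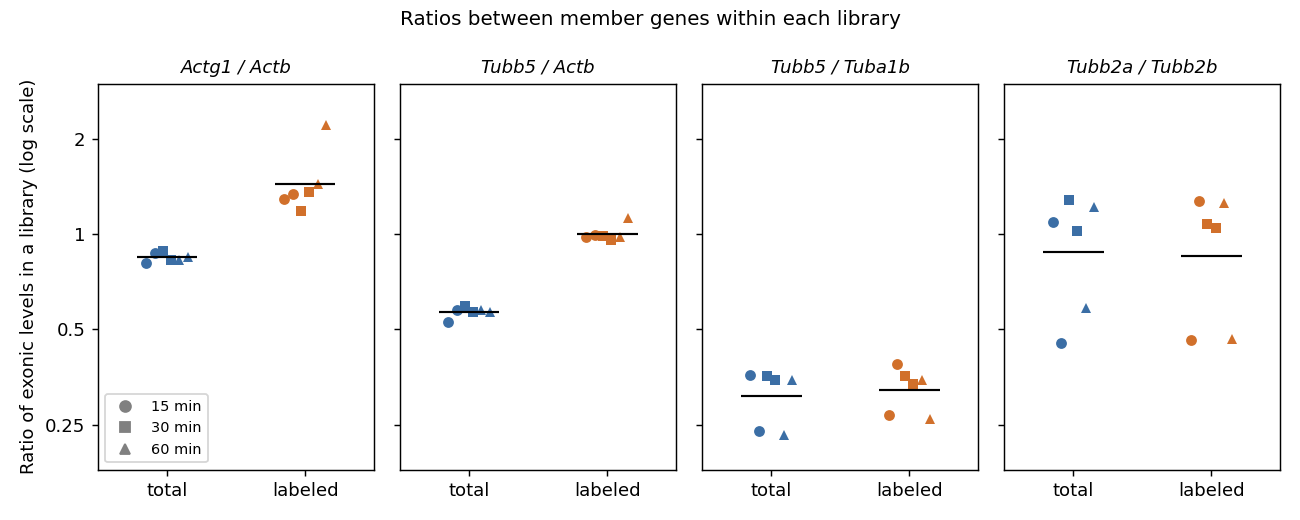
Ratio of the exonic levels of reference transcripts within each library (log axis) for 4 pairs of genes in total (blue) and labeled (orange) RNA, symbols for labeling times, black lines for geometric means. Tubb5 to Actb clusters at 0.528 to 0.592 in total and 0.959 to 1.13 in labeled RNA, whereas Tubb2a to Tubb2b splits into a low and a high set in both fractions.

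Introns of the reference transcripts, which were chosen after the values were seen, went the other way. Unspliced precursor is short-lived, and intronic signal marks transcripts made recently. For Tuba1b, the intronic level of the reference transcript was 15.8 to 28.1 in total RNA (median 23.7) and 68.1 to 197 in labeled RNA (median 110.5). For Tubb5 it was 14.9 to 31.6 (median 23.1) against 46.1 to 124 (median 92.3), and for Tubg1 2.5 to 4.52 (median 3.72) against 11.2 to 19.4 (median 12.8). In these 3 of 9 genes every labeled library was above every total library, which held for 12.7% of 71053 transcripts with tested introns. The other 6 overlapped between fractions, in each case with the labeled library of replicate 2 at 60 min as the lowest or next to lowest labeled library. Actb introns were near the limit of the data, with 1.81 to 12.4 in labeled RNA, 2.21 to 5.30 in the total RNA libraries with a value, and no value in replicate 1 at 60 min. Tubb2a introns were lower still, missing in 3 of 6 total RNA libraries and at 1.04 to 6.08 in labeled RNA.

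Introns of single transcripts were tested by limma after the values were seen. Those of 8 of 9 reference transcripts were higher in labeled RNA, where 21.7% of all tested introns were higher and 0.139% lower. The log2(value + 1) difference was 2.25 ± 0.28 (SE) in Tuba1b (limma, adjusted p = 0.00142), 1.78 ± 0.32 in Actg1 (adjusted p = 0.00338), 1.75 ± 0.29 in Tubb5 (adjusted p = 0.00230) and 1.37 ± 0.41 in Actb (adjusted p = 0.0298), against a median of 0.58 over all introns. The exception was Tubb2a, at 1.25 ± 0.49 (adjusted p = 0.0781), which was called without the 3 libraries that stood apart (1.98, adjusted p = 0.0307). After median-ratio scaling, which removed the overall intronic excess of labeled RNA, 7 of the 9 were called higher, where 3883 of all 71053 introns were higher and 2813 lower, against 15440 and 99 before, with Tuba1b at 1.65 (limma, adjusted p = 0.00999), while Actb at 0.90 lost its call (adjusted p = 0.126).

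Sums over all intronic values of a gene, the measure planned beforehand, gave fewer members higher. By that measure, 26.3% of 18154 genes were higher in labeled RNA and 0.143% lower, and 5 members were higher: Tuba1b, Tubg1, Tubb5, Tubb2b and Tuba1c, at 1.48 to 2.29. Median-ratio scaling left 1062 genes higher and 736 lower, in place of 4774 and 26, and with it these 5 members stayed called. Tubb2a, at 1.25 (limma, adjusted p = 0.0794), was called with the 6 pairs as a block (adjusted p = 0.0454), without the 3 libraries that stood apart (1.98, adjusted p = 0.0326), and without the labeled library of replicate 2 at 15 min (adjusted p = 0.0318) or at 60 min (0.0356). Actb, Actg1 and Tuba1a had values of -0.37, -0.21 and -0.33 (limma, adjusted p = 0.244, 0.428 and 0.370), in contrast to their reference introns. Their sums held larger intronic values of other transcripts. In Actg1 the intron of ENSMUST00000062147, of which 87.6% overlaps exons of other transcripts, had a mean of 681 in total and 416 in labeled RNA, against 7.93 and 31.7 for the reference transcript, whose intron overlaps exons over 78.5%. Other Actg1 introns with such overlap were higher in labeled RNA, ENSMUST00000128055 (100%) by 1.86 and ENSMUST00000106215 (78.3%) by 1.92 in log2. In Actb the intron of ENSMUST00000167721, 51.0% within exons, had 227 and 140, and the reference intron is 44.1% within exons. In Tuba1a the intron of ENSMUST00000134214 overlapped exons over 13.2% and had 337 and 274, and the reference intron does not overlap any. In Tubb5, which was higher in labeled RNA, introns lie between 25.7% and 74.2% within exons. The relation of such overlap to the intronic values was not tested. Of the 27 member introns tested, 19 were higher in labeled RNA and 1, that of ENSMUST00000062147, lower, where 21.7% and 0.139% of all tested introns were. Introns of the transcripts of a gene overlap and are not independent measurements. Those of ENSMUST00000137844 (Tubg1, mean 0.445 in total and 3.26 in labeled RNA) and ENSMUST00000141406 (Actg1, 0.793 and 3.90) reached the level for testing only through labeled RNA. A call of either carries no weight.

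**Figure D4:**
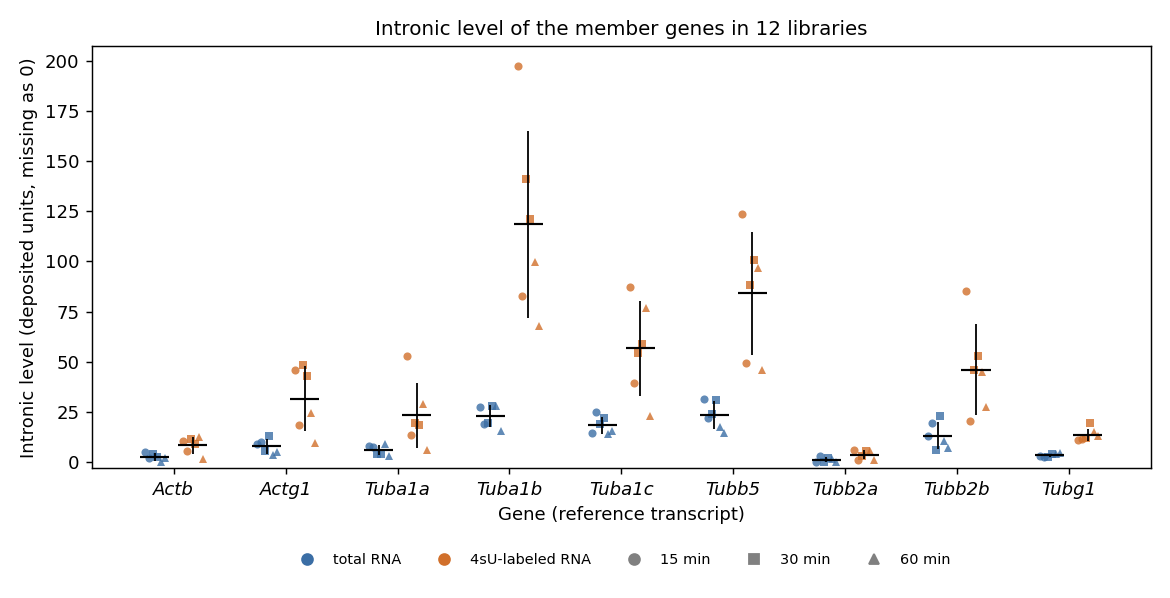
Intronic level of the reference transcript of each gene (deposited units, linear axis, missing values as 0) in total (blue) and labeled (orange) libraries, with mean ± SD in black and symbols for labeling times. Tuba1b and Tubb5 separate fully, at 15.8 to 28.1 against 68.1 to 197 and 14.9 to 31.6 against 46.1 to 124, and Actb and Tubb2a lie close to 0 in both fractions.

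To place the members among other mRNAs, rates were estimated for reference transcripts at each labeling time: synthesis as labeled exonic level per hour, processing as synthesis over total intronic level, and degradation as synthesis over the total exonic less intronic level. Since labeled libraries are scaled to the same sum at every labeling time, the estimates fall with labeling time by construction, and percentiles among reference transcripts are given in their place. The degradation estimate carries nearly the same information as the labeled to total ratio and is no separate support for it. Actb was at percentile 0.142 for degradation at 15 min and 0.631 at 30 min, where 7766 and 7770 transcripts had an estimate, and had none at 60 min because an intronic value was missing. The other members with an estimate were at mean percentiles between 19.5 (Tuba1b) and 34.2 (Tuba1a). These ranks moved with the replicate: without replicate 1 and without replicate 2, the mean percentile was 2.85 and 1.58 in Actb (0.386 with both), 39.1 and 12.3 in Actg1 (21.8), 34.4 and 30.6 in Tuba1b (19.5), and 28.5 and 31.4 in Tubg1 (20.3).

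Processing estimates of the members were in the upper range. Mean percentiles were 99.9 in Tuba1a, 99.8 in Actb, 99.5 in Actg1, 99.3 in Tuba1b, 98.9 in Tuba1c, 96.6 in Tubb5, 94.4 in Tubb2b and 89.5 in Tubg1, and Tubb2a had no estimate since no labeling time had total intronic values in both replicates. The lowest single value was 86.7, for Tubg1 at 60 min. Computed from gene sums, the percentile fell to 88.1 in Actb, 79.5 in Actg1 and 88.8 in Tuba1a, the genes whose intronic sums were not higher in labeled RNA, and stayed between 93.3 and 99.0 in the other 5. Tubb5, with 205.5 per hour at 15 min, 97.7 at 30 min and 72.4 at 60 min, stood above the upper quartile of all reference transcripts (60.5, 25.9 and 13.8 per hour) at each labeling time. Synthesis, the numerator of the processing estimate, ranked high as well. Its mean percentile was 99.3 in Tuba1a, 99.2 in Tuba1b, 98.3 in Tuba1c, 98.0 in Actg1, 97.1 in Actb and Tubb5, 92.25 in Tubb2b and 52.7 in Tubg1. The denominator, total intronic level, was low, with means of 2.78 in Actb, 3.54 in Tubg1, 6.02 in Tuba1a and 7.93 in Actg1, where values of 1 or less are missing. The Actb mean percentile rests on 15 and 30 min alone. High processing ranks are thus not separate from high labeled levels of abundant mRNAs or from intronic values close to that limit. Their relation to splicing speed was not tested.

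**Figure D5:**
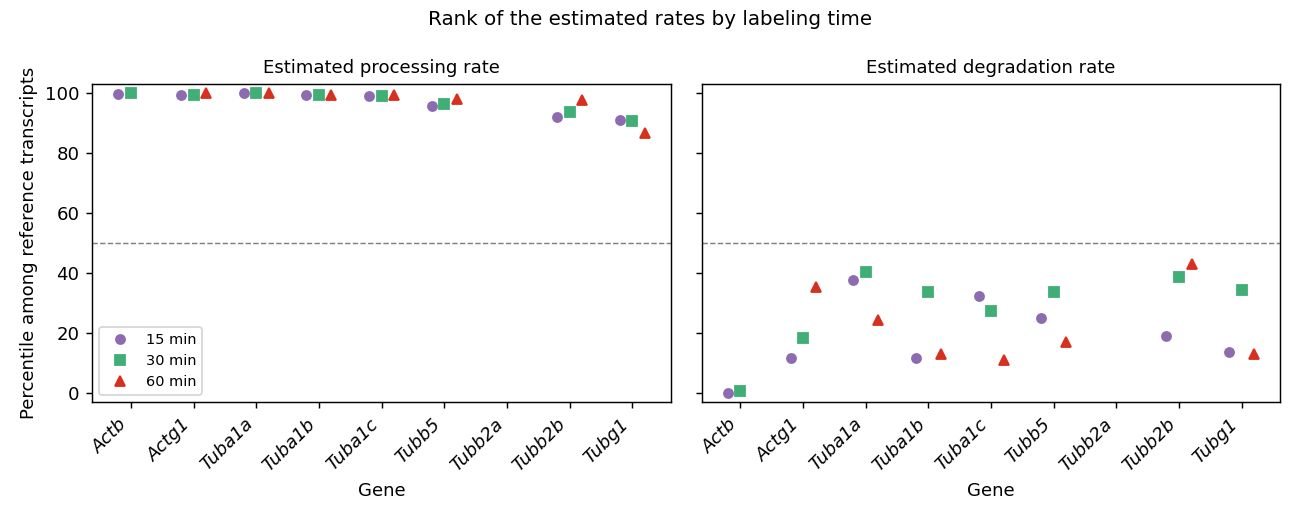
Percentile of the estimated processing rate (left) and degradation rate (right) of each gene among all reference transcripts, by labeling time, with the median dashed. All processing percentiles lie above 86, and Actb is below 1 for degradation at both labeling times with an estimate.

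Other genes of the same systems were read from lists of the gene sums tested above. Among the other actins and tubulins 12 of 17 were tested, 0 were higher and 2 lower, against 5.28% and 11.6% of all genes. They were the muscle actins Acta1 (-0.83, limma, adjusted p = 0.0127) and Acta2 (-0.65, adjusted p = 0.0144), listed at means of 371 and 92.3 in total RNA. The median over the list was -0.21. Tubb4b, a beta-tubulin and the most abundant gene of the list, had 0.02 (limma, adjusted p = 0.961) and was named after its values were seen.

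Among genes that act on actin filaments, 7 of 20 tested were lower and 1 higher, where 11.6% and 5.28% of all genes were, with a median of -0.31 against -0.05 over all genes. The capping protein subunit Capza1 fell by 0.91 (limma, adjusted p = 0.00157), the Arp2/3 complex subunits Actr3 and Arpc4 by 0.85 (adjusted p = 0.0121) and 0.73 (adjusted p = 0.00951), and the monomer-binding Pfn1 by 0.77 (adjusted p = 0.00829). The one that rose, named after its values were seen, was Arpc5l at 0.61 (adjusted p = 0.00971). Of 16 tested genes of SRF, its cofactors and its targets, 3 were higher and 4 lower, with a median of 0.04. Ctgf, a secreted matricellular protein, rose by 1.10 (adjusted p = 0.0303) and Egr1, an immediate early factor, by 0.55 (adjusted p = 0.0250). Cyr61, of the same family as Ctgf, also had 1.10 (adjusted p = 0.00748), but with means of 18.5 in total and 41.9 in labeled RNA it was tested only through labeled RNA, so its call carries no weight. Vcl, which links actin to adhesions, fell by 0.77 (adjusted p = 0.00479) and Tagln2 by 0.73 (adjusted p = 0.0225), followed by Flna and Tpm1. Egr1, Flna and Tpm1 were named after their values were seen.

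Tubulin folding factors were mixed. Of 20 tested, 5 were lower and 1 higher, with a median of -0.09, where 11.6% of all genes were lower and 5.28% higher. Tbcd, a cofactor in heterodimer assembly, fell by 0.58 (limma, adjusted p = 0.00800), the chaperonin subunit Cct6a by 0.61 (adjusted p = 0.0451) and the prefoldin subunit Vbp1 by 0.52 (adjusted p = 0.0199). The higher gene was Tbcc, another cofactor, at 0.94 (adjusted p = 0.0191), but with means of 15.3 in total and 30.0 in labeled RNA it reached the level for testing only through labeled RNA, so its call carries no weight. The 2 remaining lower genes were Cct2 and Cct5, and Ttc5 itself had -0.10 (adjusted p = 0.728). These 3 were named after their values were seen. In the gamma-tubulin ring complex 1 of 8 genes, Mzt1, was lower, by 0.57 (adjusted p = 0.0147), a share near that of all genes, and the median was -0.27. Under median-ratio scaling the counts of higher and lower genes were 2 and 4 for folding, 1 and 7 for actin dynamics, 4 and 3 for SRF, 0 and 1 for the ring complex and 0 and 2 for other actins and tubulins. Without the 3 libraries that stood apart, these counts were 1 and 10 for actin dynamics and 0 and 3 for other actins and tubulins. They were 1 and 4 for folding, 2 and 3 for SRF, and 0 and 1 for the ring complex. Of all 14137 genes in that fit, 2504 were called, 802 of them higher and the others lower.

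Of all 13977 genes, those with the profile most like that of Actb over the 12 libraries were Gm4760 (Pearson r = 0.992), Gm8464 (r = 0.991) and Rhoa (r = 0.989), the last a GTPase of actin regulation. For Tubb5 they were Bcor (r = 0.963), Prrg4 (r = 0.961) and Gm8261 (r = 0.946). The coefficients are descriptions of log2 levels over 12 libraries that share RNA fraction and labeling time, and none of these genes shared a 100-base window with the member it resembled.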

How the data were processed

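The authors removed reads of rRNA with STAR 2.5.0, aligned the remaining single-end reads of 100 nucleotides to exonic and intronic sequences and quantified them with RSEM. The deposited signal is a length-normalized abundance per transcript, separately for exons and introns, on a scale of about 20 times TPM, with values of 1 or less missing. Missing values were taken as 0. The labels name mm10, whereas gene names, structures and positions were taken from GENCODE M1 (mm9), which held 83847 of 111672 Ensembl transcripts with exonic values. Coding sequences came from the M1 protein-coding transcripts, and their 100-base windows were searched in all M1 transcripts.

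Samples were grouped by the labels. Exonic values with a mean of at least 20, and intronic values with a mean of at least 1, were compared on the log2(value + 1) scale by limma (version 3.58.1, under R 4.3.3), which was given labeling time as a covariate and a mean-variance trend, and p-values were adjusted by Benjamini-Hochberg at 0.05. This scale understates changes of low values. In simulated data, limma recovered 118 of 200 genes changed by a log2 value of 1 (9 false calls) and 184 of 200 changed by 2 (7 false calls) for labeled against total gene levels. The simulated noise was independent between genes and libraries, without libraries that stand apart, and only these 200 genes were changed. Its false calls therefore do not give the error rate in the data. The paper describes a culture that was divided and passaged before the 2 biological replicates were seeded. The labels give a replicate number, and they do not state that a labeled and a total library share a plate. Same-numbered libraries were blocked as pairs in an alternative, and their deviations correlated at -0.0892, 0.0742 and -0.300 at 15, 30 and 60 min. Python 3.11.15, numpy 2.4.6, scipy 1.17.1 and pandas 2.3.3 served for all else. A count test was not used because the values are not counts. Alternatives were other pseudocounts, filters and scalings, pairing, and leaving out libraries. The genes and lists were chosen with earlier results of these data known. Named were all members, and of each other list at most 4 called genes with the largest change. Leaving out the 3 libraries, the reference transcripts and the tests on transcript introns were added after the values were seen.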

Additional observations from a re-analysis of the deposited data

Results flagged for a closer look

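The exonic level of the Actb reference transcript in the total RNA library of replicate 1 at 15 min was 3235, apart from the other 5 total RNA libraries at 2553 to 2775. The gap was 0.675 of the range, above Dixon's critical value for 6 libraries. Of 36 groups of 6 libraries examined, this was the 1 found, where chance flags about 1 in 20 groups, or 1.8 of 36. Without that library, the log2 difference of the Actb gene level was -1.02 (limma, adjusted p = 0.00924).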

How the results depend on the processing

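Among the members, Actb kept its call in 22 of 24 alternatives at the gene level, Actg1 in 20 and Tuba1b in 11. The exceptions for Actb were the fits without replicate 1 or without replicate 2, which left 3 libraries against 3 and called 0 and 4 genes in limma (1418 and 2275 at an unadjusted p under 0.05). The counts of genes and transcripts called moved with the libraries used. Leaving out a replicate or a library gave 0 to 2932 genes (2353 with all), 0 to 10453 transcripts (7888) and 2047 to 9150 genes for introns (4800). It gave 0 to 9 genes at 15 min, 0 to 29 at 30 min, 0 to 490 at 60 min and 0 to 8 for 60 against 15 min, and 0 to 3 pairs of members. The highest count at 60 min arose without the labeled library of replicate 1. With labeled and total libraries as 6 pairs, the replicate block called 1270 genes, 4470 transcripts and 0 pairs of members. Beside those given above it changed no other member's call at the gene level. In the fits at single labeling times the replicate number was added as a covariate instead, and 0 genes were called at 30 min. Median-ratio scaling called 1798 genes for introns and 3 at 15 min. A pseudocount of 20 called 3, 7 and 1 genes at 15, 30 and 60 min and 4 for 60 against 15 min. Introns outside annotated exons gave 2271 genes, with Tuba1a turning from -0.33 to 1.62, and single transcript introns gave 15539, or 9855 without the 3 libraries. With 1 reference transcript per gene 0 genes were called at 30 min, and the Actb change between 15 and 60 min turned from 0.06 to -0.15. Without single libraries that change ranged from -0.45 to 0.57, and without replicate 1 the gene sum of Tuba1a turned to 0.01, in a range of -0.28 to 0.01. Causes of these shifts were not tested. With no depth in the values, no counting error or floor could be set, and 2 replicates per labeling time limited the tests at single times.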
